A study of Mus musculus with 8 samples.

Results

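Many genes start transcription at more than 1 place. The start sites described here were taken from the deposited table of transcription start site groups, in which Cuffdiff joins transcripts that begin at the same place. A gene was taken when 2 or more of its start groups each had a mean level of at least 1 FPKM over the 2 genotypes, and only those groups were kept. FPKM is a count of fragments scaled by transcript length and by the size of the library. The rule kept 4419 of the 27122 listed start groups, in 1905 of the 23100 listed genes. In 1468 of these genes there were 2 kept starts, in 317 there were 3, in 87 there were 4, in 21 there were 5, in 11 there were 6, and 1 locus held 13. A further 10070 groups passed the minimum as the single such group of their gene and were left out.

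RNA came from the cardiac ventricles of 8 mice aged 4.5 months, with the atria removed. All 8 carried the floxed alleles Sox5fl/fl and Sox6fl/fl, which can be deleted by Cre recombinase. The 4 double knockout animals (DKO) carried aMHC-Cre, whose promoter is active in cardiomyocytes, and the 4 controls (Ctrl) were negative for it, so that Cre and the deletion cannot be told apart. Pressure overload stands in the title of the study, but no label says whether these mice were operated on. Cells of the ventricle other than cardiomyocytes keep both genes in DKO. The tables hold 1 value per genotype, pooled over the 4 animals, so no value below has an error across animals, and the depth is unknown.

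A start group is a measure of a promoter, the stretch of DNA around a start at which transcription is set up. A pair of promoters in 1 gene can answer to different signals, be used in different cells, and give transcripts that differ in their first exon, and so in their leader or in the first part of the protein. Muscle offers textbook cases, such as the regulator of calcineurin Rcan1, the dystrophin gene Dmd and the myosin light chain gene Myl1. Short-read RNA measures promoters indirectly, since transcripts of 1 gene share most of their exons and the level of each start is inferred by a model. The share of a start is its level as a percentage of the summed level of the kept starts of its gene. The share difference of a gene is its largest difference in share between DKO and Ctrl, in percentage points.

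The members were chosen by the mean FPKM of each start over both genotypes. A start that was high in only 1 genotype could thus enter, and such a start can carry a large share difference. Starts just inside the minimum were in Kazn, at 0.905 FPKM in DKO and 1.09 in Ctrl, in Srek1, at 1.78 and 0.221, and in Nr4a2, at 1.22 and 0.785. Starts just outside were in Gnb1l, at 0.954 and 1.04 FPKM, in Zfp236, at 1.43 and 0.569, and in Mast4, at 0.937 and 1.06. The kept starts had a median mean level of 10.2 FPKM, with quartiles at 4.19 and 27.1 and a maximum of 18389. They were listed at 0 in DKO for 5 starts and in Ctrl for 14. At least 1 transcript known to RefSeq was listed for 2670 kept starts (60.4%), against 25208 of all listed starts (92.9%). The others held only transcripts assembled from these reads, so those starts rest on the assembly.

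The promoters of 4 genes are shown because each gene has starts far enough apart for separate RefSeq promoter entries, and 1 of its starts passed the authors' test while the other did not. Another 6 genes met the same terms, namely Ace, Pik3r1, Ppp2r3a, Rtn4, Rxrg and Tmem176b, and the 4 were picked after their values were seen. In each pair the start that passed is named first. Every sequence runs from 250 bases before to 50 bases after a RefSeq start, 5′ to 3′ on the strand of the gene, in build GRCm38.p6. In Rcan1 the capitals mark GGAAA or its complement TTTCC, the core letters bound by NFAT factors, which calcineurin activates. Rcan1 lies on the minus strand, with the promoters at chr16:92400029-92400328 for the internal start and chr16:92466120-92466419 for the upstream start.
Rcan1 internal start: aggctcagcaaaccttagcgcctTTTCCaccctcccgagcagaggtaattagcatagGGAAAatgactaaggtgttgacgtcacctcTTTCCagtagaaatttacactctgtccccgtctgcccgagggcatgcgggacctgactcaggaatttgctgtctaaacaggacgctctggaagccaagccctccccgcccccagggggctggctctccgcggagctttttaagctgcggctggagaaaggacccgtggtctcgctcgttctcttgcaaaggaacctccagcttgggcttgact
Rcan1 upstream start: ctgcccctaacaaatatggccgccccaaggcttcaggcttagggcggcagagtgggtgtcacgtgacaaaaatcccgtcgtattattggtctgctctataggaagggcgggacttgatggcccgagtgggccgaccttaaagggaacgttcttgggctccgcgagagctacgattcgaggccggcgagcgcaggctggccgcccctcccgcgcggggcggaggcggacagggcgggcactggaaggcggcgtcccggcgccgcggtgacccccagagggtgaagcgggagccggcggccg

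In the other 3 genes the capitals mark AACAAT or its complement ATTGTT, letters bound by many Sox proteins. Hopx and Pank1 lie on the minus strand, and Lifr on the plus strand. The Hopx promoters are at chr5:77115074-77115373 and chr5:77095218-77095517, those of Pank1 at chr19:34879406-34879705 and chr19:34877868-34878167, and those of Lifr at chr15:7140292-7140591 and chr15:7129322-7129621.
Hopx upstream start: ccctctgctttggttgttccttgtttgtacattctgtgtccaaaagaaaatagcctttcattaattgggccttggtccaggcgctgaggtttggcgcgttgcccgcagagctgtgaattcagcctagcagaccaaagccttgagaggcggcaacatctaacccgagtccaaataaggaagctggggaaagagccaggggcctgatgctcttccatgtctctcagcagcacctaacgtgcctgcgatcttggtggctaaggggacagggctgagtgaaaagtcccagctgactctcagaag
Hopx downstream start: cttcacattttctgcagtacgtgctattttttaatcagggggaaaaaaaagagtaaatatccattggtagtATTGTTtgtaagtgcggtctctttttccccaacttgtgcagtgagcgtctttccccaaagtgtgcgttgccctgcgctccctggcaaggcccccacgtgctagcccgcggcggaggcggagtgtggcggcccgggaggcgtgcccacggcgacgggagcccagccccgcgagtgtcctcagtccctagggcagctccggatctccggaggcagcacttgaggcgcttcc
Pank1 upstream start: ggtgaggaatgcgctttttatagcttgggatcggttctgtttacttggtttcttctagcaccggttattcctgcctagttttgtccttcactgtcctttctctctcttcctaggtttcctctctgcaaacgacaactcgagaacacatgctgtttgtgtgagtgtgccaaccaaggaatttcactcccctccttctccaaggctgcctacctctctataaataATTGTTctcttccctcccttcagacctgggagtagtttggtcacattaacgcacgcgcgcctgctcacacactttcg
Pank1 downstream start: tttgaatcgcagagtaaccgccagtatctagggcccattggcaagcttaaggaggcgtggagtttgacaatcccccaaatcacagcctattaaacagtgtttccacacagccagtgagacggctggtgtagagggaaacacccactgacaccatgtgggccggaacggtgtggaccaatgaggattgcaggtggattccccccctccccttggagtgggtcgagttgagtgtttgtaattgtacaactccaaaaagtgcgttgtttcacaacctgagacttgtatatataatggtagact
Lifr downstream start: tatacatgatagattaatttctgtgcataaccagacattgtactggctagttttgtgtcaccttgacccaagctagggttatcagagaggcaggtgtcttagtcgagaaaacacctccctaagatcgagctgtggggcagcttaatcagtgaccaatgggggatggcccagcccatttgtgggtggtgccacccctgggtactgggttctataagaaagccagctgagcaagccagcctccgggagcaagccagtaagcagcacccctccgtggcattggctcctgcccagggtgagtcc
Lifr upstream start: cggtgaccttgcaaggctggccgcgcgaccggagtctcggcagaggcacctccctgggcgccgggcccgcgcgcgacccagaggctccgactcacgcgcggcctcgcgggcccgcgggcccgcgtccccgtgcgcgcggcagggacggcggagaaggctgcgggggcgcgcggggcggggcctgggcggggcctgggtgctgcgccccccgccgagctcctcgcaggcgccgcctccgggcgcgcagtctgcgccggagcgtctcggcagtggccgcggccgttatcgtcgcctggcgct

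The internal Rcan1 promoter held GGAAA at 3 places on either strand and 1 copy of TGACGTCA, the letters of a cyclic AMP response element. The upstream Rcan1 promoter held neither. In Hopx the uncalled promoter held GGAAA at 3 places and the called one at 1, and in Pank1 the counts were 2 and 1. In Ace and Rxrg the uncalled promoter held it at 1 place and the called one at 0. In Ppp2r3a the called promoter held it at 1 place and the uncalled one at 0. The remaining genes that met the same terms held it equally often at called and uncalled starts. Over all 32851 RefSeq promoters of this length, 61.3% held GGAAA at least once, 9.42% held it 3 times or more, and 1.79% held TGACGTCA. AACAAT stood once in the downstream Hopx promoter and once in the upstream Pank1 promoter, and in neither Lifr promoter. Among the 6 genes not shown, it stood once in the called promoter of Ppp2r3a and once in the uncalled promoter of Tmem176b. It was in 10.7% of all promoters. Of the 4 pairs shown, that of Lifr differed most in base composition, with 81.3% G or C and 53 CpG sites upstream and 53.3% and 4 sites downstream, against medians of 52.7% and 7 sites over all promoters. These letters are a description of the windows and show no binding.

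The authors' deposited table tested 4284 of the 4419 starts and called 85 of them at a q of at most 0.05, 34 higher and 51 lower in DKO, in 81 genes. That was 1.98% of the tested starts of these genes. Over all 14645 tested starts the calls made up 4.94%, with 2.95% higher and 1.99% lower. With a fold of at least 1.5 as well, 39 starts passed, 21 higher and 18 lower, so that the balance between directions turns with the size required. At an unadjusted p under 0.05, Cuffdiff gave 371 of the 4284 tested starts. Counts over all 14645 tested starts were not taken at this p or with the fold of 1.5, so neither count has a share to be set against. The median log2 ratio of DKO over Ctrl was 0.70 among called higher starts and -0.51 among called lower ones, and -0.03 over the tested starts of these genes. RNA came from whole ventricle, so fewer cells of a type and less RNA per cell cannot be told apart.

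Of the 81 genes, 4 had every kept start called, and in each of the 4 both starts went the same way. Dmd, which encodes dystrophin, the link between the cytoskeleton and the membrane complex of muscle cells, lies on chromosome X at 80194209 to 82450389 in build mm9. The start of its full-length muscle transcript, which measures 13852 bases, was at 3.90 FPKM in DKO against 12.9 in Ctrl, a log2 ratio of -1.73, with q = 0.00223 in the authors' deposited table. That start also holds an assembled transcript of 13820 bases. The assembled transcript was at 1.89 FPKM in DKO against 2.07 in Ctrl, and the full-length one at 2.01 against 10.9. Another start, with an assembled transcript of 4440 bases, was at 5.51 and 16.9 FPKM, a log2 ratio of -1.62, with the same q in the authors' deposited table. Both starts fell to about the same extent, and the full-length start held 41.4% of the sum in DKO and 43.4% in Ctrl.

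The other 3 genes with every start called were chosen for mention after their values were seen. Grk5 encodes a kinase that desensitises G protein-coupled receptors, and its starts were at 16.7 and 7.66 FPKM in DKO against 8.64 and 3.53 in Ctrl. Hsph1, a heat shock chaperone, had starts at 25.5 and 22.5 FPKM in DKO against 12.8 and 15.6 in Ctrl, with a share difference of 7.97 points. Chrm2, the muscarinic acetylcholine receptor of heart muscle, had starts at 17.2 and 16.5 FPKM in DKO against 25.4 and 23.6 in Ctrl. Grk5 and Hsph1 rose from both starts and Chrm2 fell from both, each with q-values between 0.00223 and 0.0371 in the authors' deposited table.

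**Figure D1:**
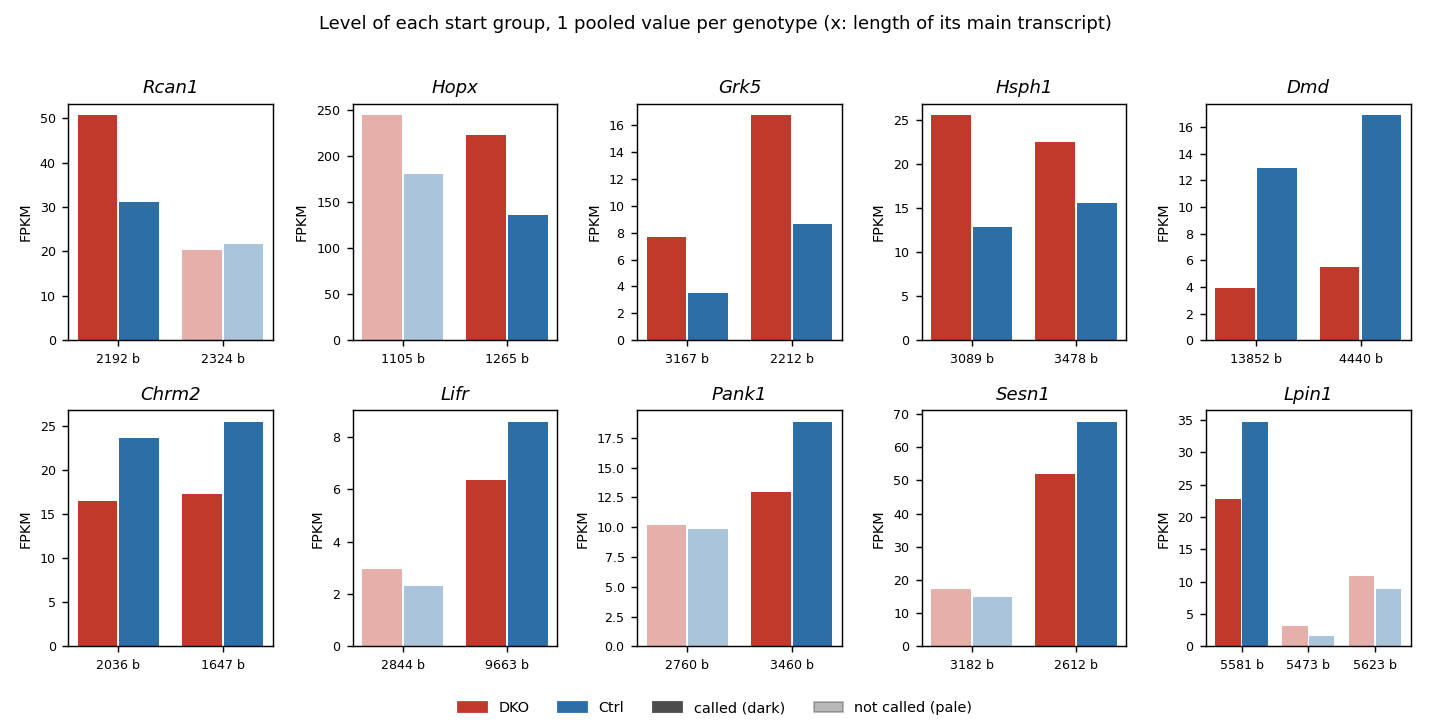
Levels of each kept start group in 10 genes, in FPKM, with 1 pooled bar per genotype and no error across animals; the label under each pair is the length in bases (b) of the main transcript of that start, dark bars are starts called by the authors' test and pale bars are not. Dmd, Grk5, Hsph1 and Chrm2 moved in the same direction from both starts, while in Rcan1 the start at 50.6 against 31.2 FPKM was called and the other, at 20.3 against 21.7, was not.

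Rcan1 had 1 called start and 1 uncalled start, at distant promoters. It encodes an inhibitor of calcineurin, and its internal promoter is known as a target of calcineurin and NFAT signalling, a pathway of pathological growth in heart muscle. The gene lies on chromosome 16 at 92392198 to 92466391 in mm9, and the starts are 66069 bases apart in GRCm38. The internal start was at 50.6 FPKM in DKO against 31.2 in Ctrl, a log2 ratio of 0.70 with q = 0.0396 in the authors' deposited table. The transcript of this start, with the same levels, had q = 0.0566 in the authors' deposited isoform table, so the call depends on the table read. The upstream start was at 20.3 and 21.7 FPKM, with q = 0.964 in the authors' deposited table. The internal start made up 71.3% of the gene in DKO and 58.9% in Ctrl, and the starts list different coding sequences. The difference between the 2 ratios was not tested, since no value per animal is given.

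Hopx encodes a small homeodomain protein that works as a cofactor in cardiomyocytes. Its upstream start, on chromosome 5 at 77516011 to 77544148 in mm9, was at 223 FPKM in DKO against 136 in Ctrl, with q = 0.00223 in the authors' deposited table. The downstream start, 19844 bases away, was at 244 and 181 FPKM, higher in DKO as well, with q = 0.158 in the authors' deposited table. Both list the same coding sequence. Hopx and the genes of the next sentences, other than Lpin1, were chosen after their values were seen.

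In Lifr, Pank1 and Sesn1, 1 start fell and an uncalled start had a higher value in DKO. Lifr encodes the receptor for leukaemia inhibitory factor and related cytokines. Its downstream start was at 6.34 FPKM in DKO against 8.57 in Ctrl, with q = 0.0475 in the authors' deposited table, and the upstream start, which lies 10970 bases away in a CpG-rich promoter, was at 2.96 and 2.32. Pank1 encodes pantothenate kinase, which opens the synthesis of coenzyme A. Its upstream start was at 13.002 FPKM in DKO against 18.9 in Ctrl, with q = 0.0175 in the authors' deposited table, and its downstream start, 1538 bases away, at 10.2 and 9.85. Sesn1, a stress-induced sestrin that restrains growth signalling, had a called downstream start at 51.9 FPKM in DKO against 67.6 in Ctrl, and an upstream start 77504 bases away at 17.3 and 15.0. The Lifr gene as a whole was not called in the authors' deposited table, where its q was 0.271, and neither was Sesn1, at 0.0678.

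Lpin1 encodes lipin, a phosphatidate phosphatase that also assists transcription of fatty acid oxidation genes. Its RefSeq start was at 22.9 FPKM in DKO against 34.8 in Ctrl, with q = 0.0387 in the authors' deposited table, and held 62.1% of the gene in DKO against 76.8% in Ctrl. Its other 2 starts, both assembled, were at 3.11 against 1.57 FPKM and 10.8 against 8.94, higher in DKO and not called. Pik3r1 encodes regulatory subunits of phosphoinositide 3-kinase that differ in their first part by promoter. The start of its long form was at 24.9 FPKM in DKO against 33.7 in Ctrl, with q = 0.00223 in the authors' deposited table, and an internal start 75587 bases downstream was at 2.61 and 1.92.

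In Ace, Ppp2r3a, Myl1 and Rxrg the called start carried most of the gene and the other start was low in both genotypes. Ace, which encodes angiotensin-converting enzyme, is the textbook case of an internal promoter for a testis form. Its upstream start was at 21.4 FPKM in DKO against 16.7 in Ctrl, with q = 0.0156 in the authors' deposited table, and its internal start at 1.35 and 0.955. Ppp2r3a, a regulatory subunit of protein phosphatase 2A, was at 50.6 FPKM in DKO against 93.0 in Ctrl from its main start and at 4.25 and 6.90 from the other, so that both were lower in DKO. Myl1, a myosin light chain of fast muscle, was at 22.1 and 37.3 FPKM from its called start and 1.49 and 2.06 from the other. Rxrg, a retinoid X receptor, was at 45.9 and 57.5 FPKM from its called start and 3.02 and 3.89 from the other, and its shares differed by only 0.168 points. In Rtn4, which makes the Nogo proteins of the endoplasmic reticulum, the called start was not the leading one. It had a called start at 21.0 FPKM in DKO and 11.4 in Ctrl, another at 31.2 and 20.5, and the last, far downstream, was lower in DKO at 2.41 against 4.32.

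Called starts lay both upstream and downstream. In 22 genes with a called start and RefSeq positions for all starts, 1 gene symbol and no short RNA, the called start was the farthest upstream in 11 and lay downstream of it in 11. Of these 22 genes, 18 listed different coding sequences for their starts and 4 a common one. Among all 1905 genes, 311 listed no sequence common to all starts, 213 a common one, and 1381 did not list it at every start. Over 523 genes with ordered starts, the farthest upstream start held over 50% of the gene in Ctrl in 266, and its share was higher in DKO in 250 and lower in 273.

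Genes of mitochondria and fuel metabolism supplied 4 of the called starts, all lower in DKO, of 109 kept starts in 43 member genes, where 1.98% of the tested starts of all 1905 genes were called. The list named 84 genes. Those 4 were in Lpin1, Eci1, an enzyme that prepares unsaturated fatty acids for oxidation, Etfdh, which passes electrons from fatty acid oxidation to ubiquinone, and Hadh, a dehydrogenase of fatty acid oxidation. Etfdh was at 354 FPKM in DKO against 473 in Ctrl from its RefSeq start, with q = 0.00410 in the authors' deposited table, and at 101 and 94.8 from an assembled start. Hadh was at 380.4 and 514 FPKM from its called start and 98.6 and 118 from the other. Eci1 was at 272 and 386 FPKM from its called start and 47.8 and 52.3 from the other. In Etfdh the second start was not lower in DKO, and in Hadh and Eci1 it was lower to a smaller extent. The share differences of the 43 genes had a median of 3.03 points, against 4.19 over all 1905 genes, and 4 reached 10 points.

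Other mitochondrial genes outside the list, named after their values were seen, also had called starts that were lower in DKO. Coq9, needed for ubiquinone synthesis, was at 367 FPKM in DKO against 486 in Ctrl from its RefSeq start and 76.4 and 75.6 from an assembled one. Cox7a1, a heart and muscle subunit of cytochrome c oxidase, was at 2706 and 3751 FPKM from its called start and 2891 and 3890.1 from the other, so that its shares differed by 0.742 points. Etfa, the alpha subunit of the electron transfer flavoprotein, was at 555 and 710.3 FPKM from its called start and 626 and 829.9 from the other. Bckdhb, a subunit of the complex that breaks down branched-chain keto acids, was at 35.6 and 55.0 FPKM from its called start.

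Called starts that were higher in DKO included several of immune genes. The list of stress and immune genes had 5 members among its 56 names, with 11 kept starts, of which 4 were called higher and none lower, where 1.98% of all tested starts of the 1905 genes were called in either direction. Beside the 2 starts of Hsph1 these were in Lcp1, an actin-bundling protein of leukocytes, and C1qb, a chain of complement C1q. Lcp1 was at 9.31 FPKM in DKO against 6.16 in Ctrl from its called start and 1.72 and 0.647 from the other, and C1qb was at 43.0 and 30.8 from its called start and 20.3 and 15.0 from the other. Of the 42 kept starts in 19 matrix genes, 1 was called, a share near that 1.98%. It was in Sparc, which encodes a collagen-binding matrix protein, at 217 FPKM in DKO and 161 in Ctrl. Its other start was at 37.5 and 33.0.

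Many markers of macrophages and fibroblasts were called higher in DKO as well, and few of the other cell types listed. Over all tested genes of the gene table, 7.36% were called. Of 19 measured macrophage markers, 16 were called higher in DKO in the authors' deposited gene table, none stood at 0, and their levels summed to 506 FPKM in DKO and 328 in Ctrl. Of 15 fibroblast markers, 10 were called higher, with sums of 1033 and 792 FPKM. None of 17 endothelial markers was called, with sums of 772 and 811 FPKM, and none of 13 cardiomyocyte markers, with sums of 74768 and 84982. Of 13 smooth muscle and pericyte markers, 1 was called higher. The same held for 1 of 11 measured lymphocyte and neutrophil markers and 1 of 12 measured adipocyte, neural and red cell markers. The part of these cell types in the levels of single starts was not tested.

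Several immune and lipid-transport genes had 1 called start, and those other than Apoe were named after their values were seen. Lsp1, a leukocyte actin-binding protein, was at 27.3 FPKM in DKO against 18.7 in Ctrl from its upstream start, while its other start 11034 bases away was at 5.38 and 5.46. Tmem176b, a membrane protein of dendritic cells and macrophages, was at 26.5 and 14.5 FPKM from its called start and 4.50 and 4.85 from the other, 257 bases away. Ptgds, a prostaglandin D synthase, was at 499 and 349.6 FPKM from its RefSeq start and 157 and 179 from an assembled one. In Lsp1, Tmem176b and Ptgds the share of the called start was higher in DKO by 6.12, 10.5 and 9.96 points. In Apoe, which carries lipids and is made by macrophages among other cells, both starts were higher to a similar extent, at 135 against 90.4 FPKM with q = 0.0104 and 133 against 96.6 with q = 0.0517, in the authors' deposited table.

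The called start and the remaining starts of a gene were then set side by side. In 71 genes with 1 gene symbol, no isoform under 200 bases and every start tested, 1 start was called and at least 1 was not. Their 80 uncalled starts had the sign of the called start in 48 cases and the other sign in 32. For scale, 1343 genes with 2 kept starts had 1 symbol, no short isoform and every start tested, whether called or not. In 579 of them (43.1%) both starts had the same sign. The called start was the one with the highest level in 59 of the 71 genes. In 41 genes all starts shared 1 sign, and 39 of these genes were also called as a whole. In the other 30 at least 1 start had the other sign, and 15 of them were called as a whole.

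**Figure D2:**
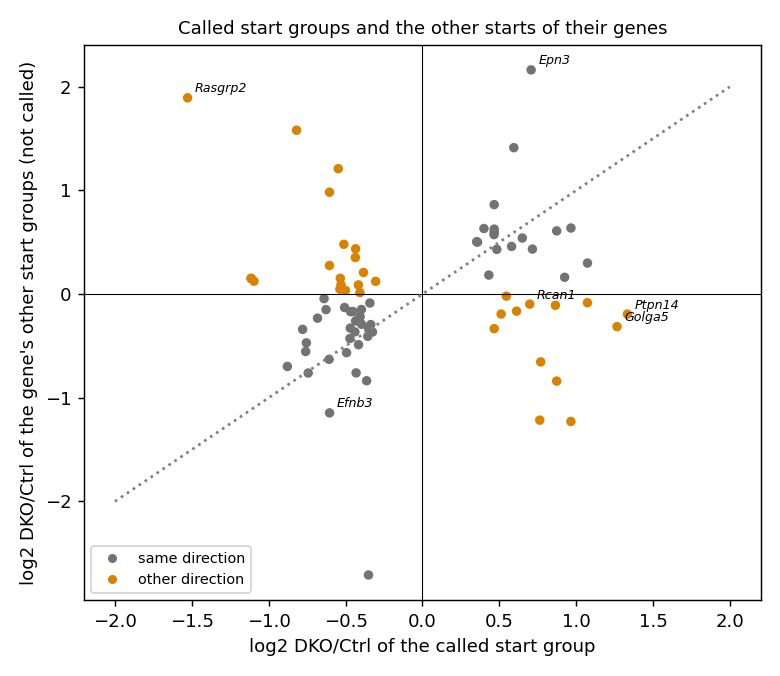
The log2 ratio of DKO over Ctrl of the called start group (x axis) against that of each uncalled start group of the same gene (y axis), 80 points in 71 genes; grey points share the direction, orange points do not, and the dotted line marks equal ratios. The 48 grey points fill the upper right and lower left quadrants, and Rasgrp2, at -1.53 and 1.89, lies farthest from the line among the 32 orange points.

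No gene had starts called in opposite directions by Cuffdiff at a q of at most 0.05. At an unadjusted p under 0.05 there were 12 such genes. Among them Jarid2, a cofactor of the Polycomb complex, had RefSeq starts 497 bases apart at 4.00 FPKM in DKO against 2.36 in Ctrl and 3.47 against 5.00, with the same coding sequence. Jarid2 was named after its values were seen, and the authors' deposited table gave it q-values of 0.344 and 0.278.

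The 10 genes with the largest share differences among those with a called and an uncalled start, all tested, each had an uncalled start of the other sign, which choosing them by share difference favours. Rasgrp2, an exchange factor for the small GTPase Rap, was at 5.30 FPKM in DKO against 15.3 in Ctrl from its RefSeq start, with q = 0.00223 in the authors' deposited table. Its assembled start was at 10.6 and 2.84 FPKM, with q = 0.580 in the authors' deposited table, and the main transcripts of the 2 starts measured 2193 and 2154 bases. The leading start of Rasgrp2 thus differed, with the RefSeq start at 33.4% in DKO and 84.3% in Ctrl.

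Golga5, a golgin of the Golgi rim, showed the same form with both starts in RefSeq, 57 bases apart, on chromosome 12 at 103707344 to 103736117 in mm9. Its upstream start was at 4.34 FPKM in DKO against 1.80 in Ctrl, with q = 0.00887 in the authors' deposited table, and its downstream start at 11.1 and 13.8. The gene as a whole had q = 0.980 in the authors' deposited gene table. Both starts list the same coding sequence. Nagk, which encodes N-acetylglucosamine kinase, was at 17.3 and 10.2 FPKM from its called RefSeq start and 4.22 and 9.79 from the other, and the main transcripts measured 1330 and 1321 bases.

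A further 5 genes of this kind had 1 start in RefSeq and 1 assembled from these reads, or 2 assembled ones. Ptpn14, a tyrosine phosphatase of cell junctions, was at 2.56 FPKM in DKO against 1.01 in Ctrl from its called start and 5.47 and 6.25 from the other. R3hdm2 was at 39.99 and 58.4 FPKM from its called start and 22.0 and 9.51 from the other. Arhgap23 was at 3.02 and 5.33 FPKM from its called start and 3.98 and 1.33 from the other. Pdzd2 had 6.70 and 3.93 FPKM from its called start against 3.36 and 5.29, and Hspa12a had 3.27 and 4.66 against 2.05 and 1.47. In all 5 the second start went the other way and was not called. Atf7ip, a chromatin cofactor, had 3 starts, the called one at 11.9 and 6.07 FPKM, and assembled ones at 4.85 against 11.4 and 2.95 against 1.90.

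Calls at the level of starts and of genes overlapped in part. Of the 81 genes with a called start, 61 were called in the authors' deposited gene table and 20 were not. Of the 1905 genes, 169 were called in the gene table (8.87%), 108 of them with no called start, against 7.36% of all 12133 tested genes.

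The share difference had a median of 4.19 points over the 1905 genes, with quartiles at 1.79 and 9.26. It reached 10 points in 435 genes (22.8%), 20 points in 145 and 30 points in 60. Of the 435 genes, 24 had a called start (5.52%) and 411 had none, against 81 with a called start among all 1905 genes (4.25%). With 1 value per genotype, the spread of share differences between animals cannot be given.

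**Figure D3:**
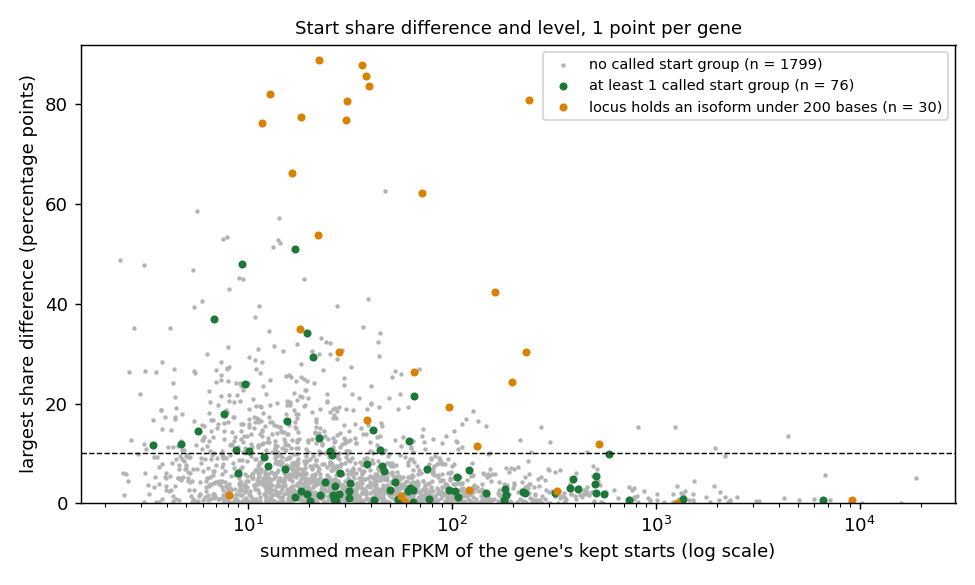
The share difference between DKO and Ctrl of each of the 1905 genes, in percentage points, against the summed mean level of its kept starts on a log axis; green points have at least 1 called start, orange points lie at loci with an isoform under 200 bases, and the dashed line marks 10 points. Differences of 10 points or more are in 435 genes and grow rarer from low to high levels, and the 10 highest points are all orange.

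The largest share differences were those of loci with very short RNAs. All 10 genes with the largest differences held an isoform under 200 bases, as did 30 of the 1905 genes, of which 23 reached 10 points, with a median of 32.7. These starts belong to microRNA or small nucleolar RNA genes inside a longer gene, and FPKM of a short transcript carries a large factor for its length. Of the 28 kept starts under 200 bases, 11 were listed at 0 in Ctrl and 3 at 0 in DKO, and 2 were called. The coding starts of such loci could still be called on their own, as in Prmt2, an arginine methyltransferase named after its values were seen, at 14.6 FPKM in DKO and 10.4 in Ctrl with q = 0.00572 in the authors' deposited table. The microRNA in Prmt2 was listed at 0 in DKO and at 53.6 FPKM in Ctrl and was not tested.

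Among genes with 1 symbol, no short isoform, every start tested and a summed mean of at least 5 FPKM, the 12 largest differences ranged from 39.5 to 62.6 points, and only Rasgrp2 among the 12 had a called start. Zmynd11, a reader of modified histones, had 4 starts, of which 1 was at 37.2 FPKM in DKO against 7.75 in Ctrl and another at 7.24 and 25.6. Lipe, the hormone-sensitive lipase, was at 0.638 FPKM in DKO against 9.52 in Ctrl from 1 start and 17.6 and 10.1 from the other. Cacna1s, the calcium channel of skeletal muscle, was at 0.248 and 3.38 FPKM from 1 start and 4.07 and 3.06 from the other, with main transcripts of 4062 and 4049 bases. Rps6ka3, a ribosomal S6 kinase, had starts at 3.50 against 11.2 FPKM and 10.8 against 3.39, with main transcripts of 2223 and 2203 bases. The q-values of these 4 genes' starts in the authors' deposited table ran from 0.304 to 0.967.

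Sestd1, Ckap5, Csrnp1, Zbtb7a, Larp1b and St3gal1 completed the 12 with Rap1gap. Rap1gap, which switches off Rap, was the 1 gene of the 12 with all starts in RefSeq, 25855 bases apart in GRCm38. Its main start was at 5.94 FPKM in DKO against 3.45 in Ctrl and its other start at 0.0764 and 2.48, with q = 0.292 for the second in the authors' deposited table. Larp1b, an RNA-binding protein, was at 29.97 and 16.0 FPKM from its RefSeq start, with q = 0.0694 in the authors' deposited table.

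**Figure D4:**
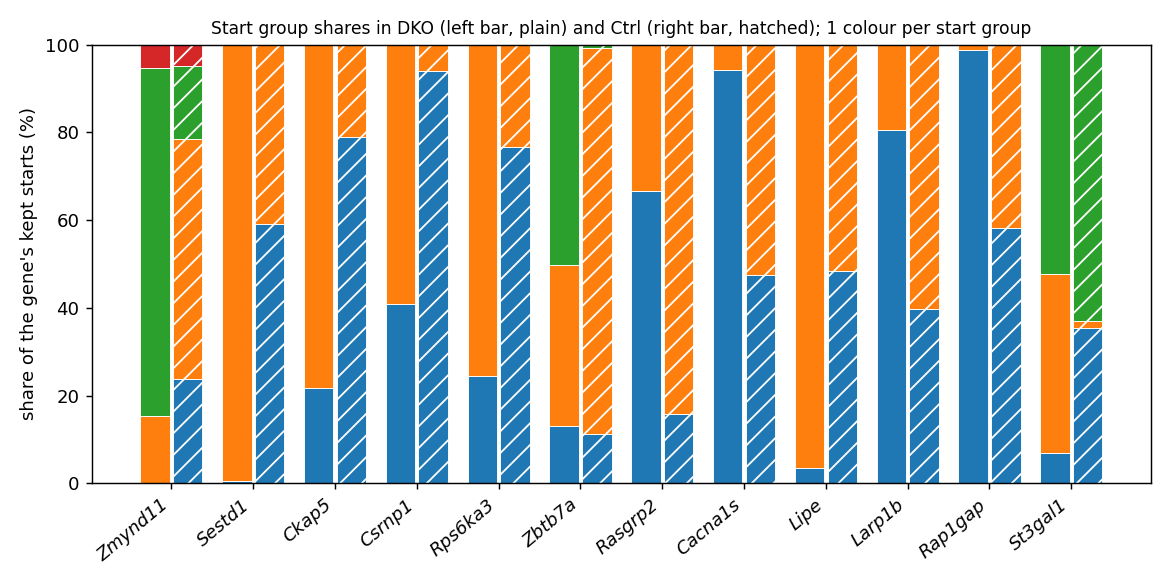
Shares of each kept start group in the 12 genes with the largest share differences at loci with 1 gene symbol, no isoform under 200 bases, all starts tested and a summed mean of at least 5 FPKM; the left, plain bar is DKO, the right, hatched bar is Ctrl, and each colour is 1 start group of that gene. In Sestd1 1 start held 99.6% in DKO and 40.9% in Ctrl, and Rasgrp2 is the 1 gene of the 12 with a called start.

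The size of the share difference followed the level of the gene. It had a median of 8.89 points in 83 genes whose kept starts summed to a mean of 2 to 5 FPKM, 6.27 in 665 genes at 5 to 20, 3.78 in 822 genes at 20 to 100, and 1.98 in 335 genes at 100 or more. It also followed how unlike the transcripts were. In 1343 genes with 2 starts, 1 gene symbol, no short isoform and every start tested, the median was 6.19 points in 170 genes whose main transcripts differed by under 50 bases, and 37.6% of them reached 10 points. It was 4.46 points in 432 genes from 50 to under 200 bases, 3.06 in 531 from 200 to under 1000, and 2.09 in 210 at 1000 or more, where 4.29% reached 10 points.

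**Figure D5:**
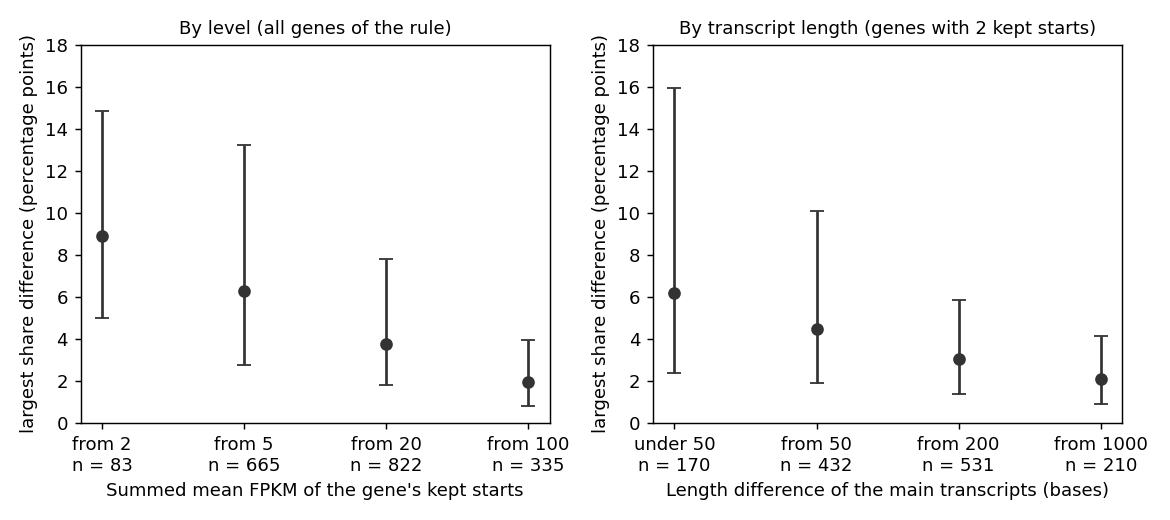
Median share difference in percentage points (dots) with the quartiles (bars) by summed mean FPKM of the kept starts (left, 1905 genes) and by the length difference of the main transcripts in genes with 2 kept starts (right, 1343 genes); n is the number of genes. The medians go down from 8.89 to 1.98 with level and from 6.19 to 2.09 with length difference.

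The share difference varied less with coding sequence and with distance, and showed no steady trend with distance. The median was 4.84 points in 213 genes whose starts share a coding sequence, 4.103 in 311 genes with none common to all starts, and 4.115 in 1381 genes for which it was not listed at every start. In 549 genes with a RefSeq position for every start, the median distance between the outermost starts was 1993 bases. The median share difference was 4.08 points in 166 genes under 500 bases, 4.60 in 160 genes from 500 to under 5000, 5.57 in 158 genes from 5000 to under 50000, and 4.06 in 65 genes at 50000 or more. Genes with all starts in RefSeq had a median of 4.49 points (584 genes, 25.3% at 10 or more), and the others 4.07 (1321 genes, 21.7%). The former had lower levels, with a median summed mean of 16.3 FPKM against 35.1. Within each range of level the order turned, with lower medians where all starts were in RefSeq. These were 7.95 against 9.86 points at 2 to 5 FPKM and 5.78 against 6.72 at 5 to 20. They were 3.68 against 3.84 at 20 to 100 and 1.46 against 2.13 at 100 or more.

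The start with the highest level differed between DKO and Ctrl in 225 genes (11.8%). In 71 of them it was ahead by at least 10 points in both genotypes, and in 37 the share difference was under 5 points. The 10 of these genes with the highest levels showed mostly near ties. Slc25a11, the mitochondrial carrier of 2-oxoglutarate, was at 236 and 226 FPKM in DKO and 263 and 276 in Ctrl. Tsc22d4 differed by 0.241 points and Apoe by 2.09. The widest were Hspd1, a mitochondrial chaperonin, by 15.6 points, and Sh3bgr, by 15.2, each over 3 starts of which none was called. Pkig, an inhibitor of protein kinase A, had both starts in RefSeq, 35639 bases apart, at 65.9 and 86.5 FPKM in DKO and 78.7 and 78.1 in Ctrl. Ube2b, Prkaca, 2310046A06Rik and Nudt3 differed by 1.73 to 7.37 points.

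Genes known for alternative promoters gave 37 members of 61 listed, with a median share difference of 2.79 points, against 4.19 over all genes, and 10 reached 10 points. Of their 103 kept starts, 1 was called higher, in Rcan1, and 3 lower, in Dmd and Lpin1, beside the 1.98% called over all 1905 genes. Ppara, the nuclear receptor that drives fatty acid oxidation genes, had the largest share difference, with an assembled start at 10.9 FPKM in DKO against 5.44 in Ctrl and 3 others at 6.54 against 10.4, 1.02 against 5.81 and 1.61 against 3.93. None of the 4 was called, while the gene as a whole was, at q = 0.00517 in the authors' deposited gene table. Shroom3, an actin-binding organiser of cell shape, was at 10.3 and 4.89 FPKM from its RefSeq start, with q = 0.0650 in the authors' deposited table, and at 3.76 and 4.94 from the other. Fhl1, a LIM protein of muscle, had 3 RefSeq starts, of which the main one was at 71.7 FPKM in DKO against 77.2 in Ctrl and the second at 33.2 and 15.6.

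Genes of the sarcomere, Z-disc and costamere had small share differences in most cases. The list gave 36 members with 98 kept starts and a median share difference of 2.02 points, 5 reached 10 points, and 2 starts were called, both in Dmd, a share close to the 1.98% over all 1905 genes. All genes whose kept starts summed to a mean of 100 FPKM or more had a median of 1.98 points. No list median given here was matched for level. In 5 well-known genes, named after their values were seen, the share difference was at most 2.81 points. Tnnt2, cardiac troponin T, had 99.7% in DKO and 99.7% in Ctrl on its main start, and Tpm1, a tropomyosin, 99.9% and 99.9%. Mybpc3, cardiac myosin-binding protein C, had 57.0% and 56.9%, and Ttn, titin, 83.1% and 80.3%. Ryr2, the calcium release channel, which is in the ion channel and calcium list, had 56.0% and 54.1%.

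The wider differences in this list were at starts that were not called. Tln2, a talin that links integrins to actin, had its RefSeq start at 5.64 FPKM in DKO against 9.33 in Ctrl and 2 assembled starts at 5.89 against 2.12 and 2.45 against 1.53. Synpo2l, an actin-binding Z-disc protein, had 3 assembled starts, of which 1 was at 21.0 FPKM in DKO against 3.78 in Ctrl, and the gene as a whole was called at q = 0.00158 in the authors' deposited gene table. Myh6, the alpha myosin heavy chain, had 3 starts with transcripts of 6005 to 6079 bases. They were at 1902, 1510.1 and 831 FPKM in DKO and 1903, 1196 and 1537 in Ctrl, with no call.

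Ion channel and calcium genes gave 25 members with a median of 3.29 points, against 4.19 over all genes. Rcan1 held the 1 called start among their 57, a share close to the 1.98% over all 1905 genes. Cacnb2, a calcium channel beta subunit, was at 25.6 FPKM in DKO against 30.9 in Ctrl from its RefSeq start and 4.49 and 0.779 from the other. Kcnh2, a delayed rectifier potassium channel, and Cacna1c, the main calcium channel of heart muscle, both named after their values were seen, differed by 0.285 and 1.33 points.

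Transcription factors gave 28 members with a median of 5.23 points, against 4.19 over all genes. The 1 called start of their 66 was in Hopx, a share close to the 1.98% over all 1905 genes. Gata4, a cardiac zinc finger factor, was at 27.6 FPKM in DKO against 37.2 in Ctrl from its RefSeq start and 27.2 and 16.5 from an assembled one, while the gene as a whole had q = 0.956 in the authors' deposited gene table. Zbtb16, a zinc finger repressor, was at 2.33 and 7.32 FPKM from its RefSeq start, with q = 0.0657 in the authors' deposited table, and 12.1 and 11.9 from the other. Gata6 and Tcf4 differed by 19.4 and 17.1 points with no start called. Nr4a1, an immediate-early nuclear receptor, is in the stress and immune list. It had an assembled start at 23.6 FPKM in DKO and 2.49 in Ctrl, its RefSeq start at 19.3 and 12.2, and another assembled one at 14.9 and 14.7. None of these starts was called, while the gene was called as a whole.

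Esrrb, an estrogen-related receptor of fuel genes, is in the metabolic list and had 2 RefSeq starts 60527 bases apart. They were at 5.25 FPKM in DKO against 7.69 in Ctrl and 5.70 against 5.11, and neither was called. Genes of matrix, vessel and cytoskeleton lists had a few wide differences, again with no call. Pdgfra, a receptor of fibroblasts, was at 3.99 and 4.69 FPKM from 1 start and 6.14 and 2.98 from the other. Col15a1 differed by 18.5 points, Cdh5, the cadherin of endothelium, by 13.5, Mtus1 by 12.96 and Lims2 by 12.7. Epb4.1l2, a membrane skeleton protein with both starts in RefSeq, had 12.02 and 8.61 FPKM from its main start, with q = 0.0859 in the authors' deposited table. The cytoskeleton list as a whole gave 33 members with a median of 2.36 points, and the matrix list 19 with 2.86.

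Among the genes with the most starts, Sorbs2, an adaptor of the Z-disc, had 6 kept starts with a share difference of 1.77 points, and 5 of the 6 were higher in DKO. Crip2, a LIM protein, had 6 starts and a share difference of 15.4 points, reached at a start with 225 FPKM in DKO and 39.8 in Ctrl. That start had q = 0.701 in the authors' deposited table, and none of the 6 was called. The cluster of gamma protocadherins, adhesion proteins each with a promoter of its own, held 13 kept starts with mean levels of 1.02 to 9.19 FPKM, summing to 27.9 FPKM in DKO and 26.9 in Ctrl. None was called, 6 were lower in DKO, and the largest share difference was 1.14 points.

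The deleted genes are not among these 1905 genes. Sox6 as a whole was called lower, at 1.69 FPKM in DKO against 3.39 in Ctrl with q = 0.00158 in the authors' deposited gene table. It had 3 listed starts, of which only 1 reached a mean of 1 FPKM, at 1.60 FPKM in DKO and 2.54 in Ctrl, with q = 0.339 in the authors' deposited table. Sox5 had 1 listed start at 0.497 and 0.369 FPKM. Their starts therefore give no share, and starts do not separate deleted from intact exons.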

How the data were processed

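Ventricular RNA of 8 mice, 4 per genotype, was sequenced single-end. The authors used TopHat2 2.0.9, Cufflinks 2.1.1 and Cuffdiff 2.1.1 with build mm9, per the submitters' processing notes. For the annotation and settings, the sources used here say nothing. The authors' FPKM values in the deposited tables are 1 per genotype, per the file headers, so replicates cannot be compared, no test across animals was run, and the depth per sample is unknown. The p-values and q-values are those of the authors' Cuffdiff comparison, per the file headers. Transcript lengths in bases are as deposited. Because transcripts of 1 gene overlap, the FPKM of each start depends on how Cuffdiff divides shared reads.

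Shares, share differences and log2 ratios of DKO over Ctrl were computed from the authors' FPKM, with no pseudocount, and checked on simulated data, using Python 3.11.15, pandas 2.3.3, numpy 2.4.6 and matplotlib 3.10.9. Start positions and promoters came from GENCODE and RefSeq tables in GRCm38, matched by RefSeq transcript, and 1399 kept starts had a promoter entry. No coordinates were converted between builds, and mm9 positions are counted from 1.

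The members and gene lists were chosen with earlier results of these data known. Named genes were, among genes with 1 symbol, no isoform under 200 bases and every start tested, the 12 with the largest share difference at a summed mean of at least 5 FPKM and the 10 largest with a called and an uncalled start. They also were the 10 with the highest level among those whose leading start differed, up to 3 members of each of 16 lists at 10 points or more, Dmd, and the 3 genes with the most starts. Some genes that this rule takes are not reported here. Alternatives changed the minimum level, the denominator, the thresholds and the joining of rows into genes.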

Additional observations from a re-analysis of the deposited data

How the results depend on the processing

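A minimum of 5 FPKM in place of 1 left 1158 genes, of which 180 differed by 10 points or more and 146 changed their leading start. With the minimum of 1 FPKM required in each genotype, 1796 genes stayed and 345 differed by 10 points or more, against 1905 and 435. The called starts were then 28 higher and 51 lower in DKO, against 34 and 51. Other thresholds gave 845 genes at 5 points and 145 at 20, and 71 leading starts when a lead of 10 points was required in both genotypes. At a q under 0.01, 39 starts were called (16 higher, 23 lower), and with a fold of at least 1.5 at a q of at most 0.05 also 39 (21 higher, 18 lower), against 85 (34 and 51). At an unadjusted p under 0.05, 12 genes had starts in opposite directions, against 0. Keeping only genes whose starts all match RefSeq, an alternative chosen after seeing the data, left 584 genes, 148 with a share difference of 10 points, 69 with another leading start and 28 called starts (16 higher, 12 lower); fewer genes enter. No share difference of a named gene changed sign under any alternative run. Adding 1 FPKM to each level moved 33 of 56 share differences by a point or more.

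No paired analysis was possible because the tables hold 1 value per genotype. Leaving out replicates was not run, for want of values per animal.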
